A study of Rattus norvegicus with 11 samples.

Results

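Transcripts for making, packaging, recapturing and degrading the inhibitory transmitter gamma-aminobutyric acid (GABA), and for its metabotropic GABA-B receptor, were measured in medial prefrontal cortex and compared between rats that had self-administered heroin and yoked saline rats. The 7 genes were Gad1 and Gad2 (synthesis), Slc32a1 (vesicle loading), Slc6a11 (uptake), Abat (breakdown), and Gabbr1 and Gabbr2 (receptor subunits). Every non-control probe that carries one of these gene symbols on the array was taken, whatever its signal, which gave 10 of the 41012 non-control probes. Gad1 was read by 3 probes, Gabbr1 by 2 and each of the other 5 genes by 1.

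All rats were males aged 4 months. The heroin group held 6 rats that had obtained intravenous heroin by licking a spout, and the control group held 5 yoked rats, whose infusions were of saline and were set by the intake of a heroin rat. Both groups then went 14 days without drug and were put back in the same chambers for an extinction session, with no drug given, right before the brain was taken. The tissue was a block of cortex medial to the forceps minor, with area Cg1 and the prelimbic, infralimbic and medial orbital cortices, and RNA of each rat was put on 1 single-colour array. Heroin exposure, withdrawal from it and the response to the extinction session go together in this design, so their parts in any difference cannot be told apart. In such a block of mixed cells, fewer cells of a type and less RNA per cell cannot be told apart either.

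Cortical GABA is made from glutamate by the glutamate decarboxylases GAD67 (Gad1) and GAD65 (Gad2), mostly in local interneurons, and is loaded into synaptic vesicles by the transporter VGAT (Slc32a1). After release it is taken up by plasma membrane transporters, among them GAT3 of astrocytes (Slc6a11), and broken down by GABA transaminase (Abat). GABA-B receptors are obligate pairs of a Gabbr1 and a Gabbr2 subunit that act through inhibitory G proteins to open potassium channels and to lower transmitter release.

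Each probe is an oligonucleotide of 60 bases, and the following 6 are shown to give the stretches that these probes read. The remaining probes, among them Gad1 A_44_P536310 and the only ones of Slc32a1 and Gabbr2, are given by position only. Positions are those given with the array in genome build rn3, letters run 5′ to 3′ as printed on the array, and no letters are in capitals because no motif was searched.
Gad1 A_44_P243102, chr3:52709400-52709459, plus strand: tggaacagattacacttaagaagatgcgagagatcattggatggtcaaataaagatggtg
Gad1 A_44_P115461, chr3:52711459-52713893, plus strand: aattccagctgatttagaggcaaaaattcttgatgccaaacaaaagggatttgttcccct
Gad2 A_44_P554928, chr17:96332395-96332454, plus strand: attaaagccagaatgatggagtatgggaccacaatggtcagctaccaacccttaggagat
Slc6a11 A_44_P391345, chr4:150440112-150440919, plus strand: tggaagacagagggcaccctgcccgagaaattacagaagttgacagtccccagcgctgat
Abat A_44_P308925, chr10:7047983-7048042, minus strand: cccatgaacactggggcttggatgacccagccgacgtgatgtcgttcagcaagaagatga
Gabbr1 A_44_P249164, chr20:1554609-1554668, minus strand: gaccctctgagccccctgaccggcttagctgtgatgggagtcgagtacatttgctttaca
The genomic spans of the second Gad1 probe, 2435 bases, and of the Slc6a11 probe, 808 bases, exceed the probe length, so these probes are split over separate genomic blocks. The third Gad1 probe, A_44_P536310, lies at chr3:52725286-52725345, 11392 bases beyond the second. The other Gabbr1 probe, A_43_P12481, described on the array as a receptor 1d transcript, lies at chr20:1554880-1554939, 211 bases from the first. Slc32a1 was read at chr3:149252692-149252751 and Gabbr2 at chr5:63242237-63242297. The exon or untranslated region in which a probe lies was not analysed here.

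All 10 probes were detected on all 11 arrays, none was saturated, and all passed the detection filter. Signals are given as multiples of the array median, and they are not compared between probes. No probe of the 7 genes passed both thresholds of the study's methods, which are at least 1.4-fold and an unadjusted p below 0.02, where 2.72% of the 25555 tested probes did, 1.79% as higher and 0.927% as lower in the heroin group. In the heroin group, 9 of the 10 probes had the higher mean log2 signal, with a median change of 0.191, beside 78.7% of all tested probes and a median of 0.183 for them. Scaled to the 75th percentile of each array in place of the 50th, the median of all tested probes was -0.03, that of the 10 probes was -0.03, and 3 of 10 were higher.

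**Figure D1:**
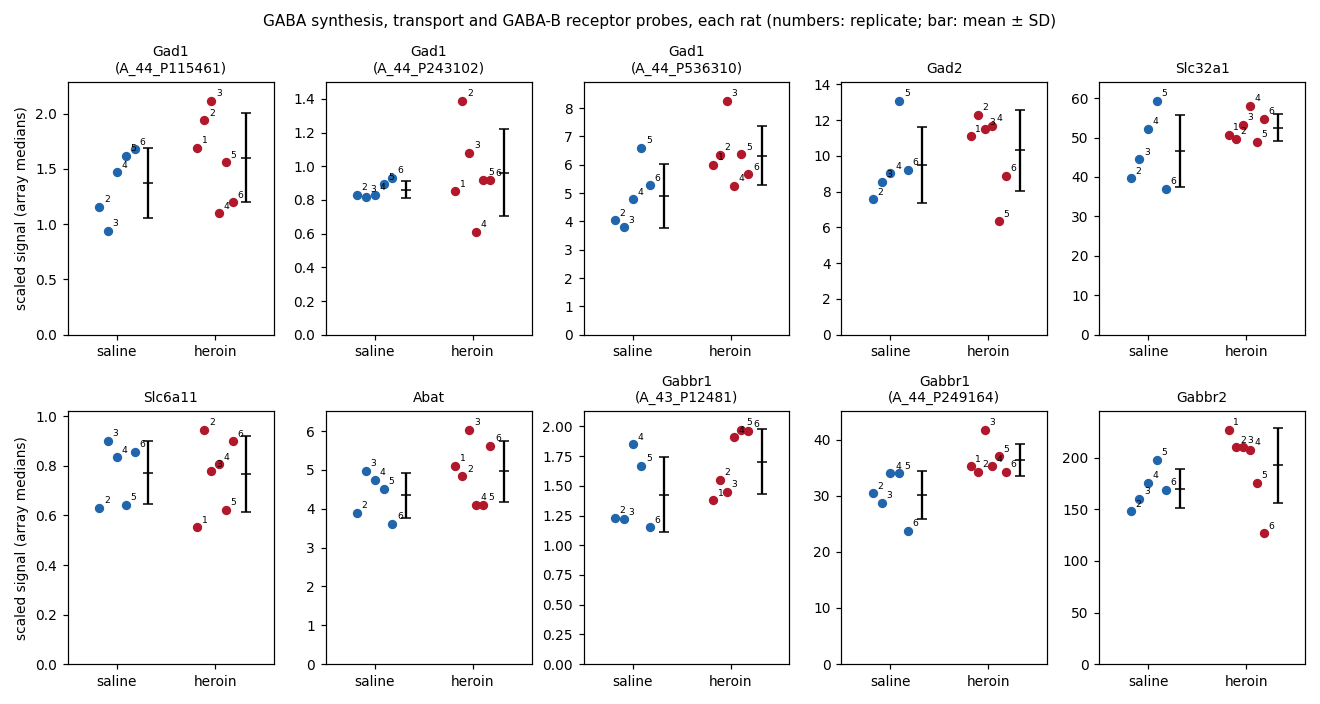
Signal of each of the 10 probes in every rat, in multiples of the array median (y axis from 0), with saline rats in blue, heroin rats in red, the replicate number beside each point and bars for the mean ± SD. The groups overlap for every probe except Gabbr1 A_44_P249164, where the lowest heroin rat (34.2) lies just above the highest saline rat (34).

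For synthesis, the brightest Gad1 probe, A_44_P536310, gave the largest change of the 10 under the 50th percentile scaling, and Gad2 one of the smallest. GAD67 makes most of the GABA of the cell body and GAD65 is tied to the synapse. Gad1 at A_44_P536310 read 4.04, 3.80, 4.78, 6.60 and 5.27 array medians in saline replicates 2 to 6. In the heroin rats the lowest, median and highest values were 5.25, 6.17 and 8.27. Every heroin rat lay above the saline median, but saline replicate 5 exceeded all heroin rats except replicate 3. The change was 0.38 on the log2 scale (SE 0.16, 95% interval 0.04 to 0.73), with a limma adjusted p of 0.263 and an exact permutation p of 0.0541 (two-sided, n = 6 and 5).

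The other 2 Gad1 probes gave smaller changes with wider intervals. A_44_P115461 read 1.16, 0.940, 1.47, 1.62 and 1.68 in the saline rats and 1.1, 1.62 and 2.12 as the lowest, median and highest of the heroin rats, a log2 change of 0.21 (SE 0.20, 95% interval -0.21 to 0.64). A_44_P243102 read 0.832, 0.818, 0.831, 0.893 and 0.933 in the saline rats and 0.612, 0.918 and 1.39 in the heroin rats, a log2 change of 0.12 (SE 0.17, 95% interval -0.25 to 0.48). The saline rats were close together at this last probe while the heroin rats lay on both sides of them. The limma adjusted p was 0.498 and 0.667 for these probes. Within arrays, the ratio of A_44_P243102 to A_44_P536310 was lower by 0.26 on the log2 scale in the heroin group (95% interval -0.67 to 0.14, exact permutation p = 0.167), and the other 2 pairs of Gad1 probes differed by 0.10 and -0.17.

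Gad2 read 7.58, 8.54, 9.03, 13.1 and 9.24 array medians in the saline rats. In the heroin rats it read 6.35, 11.3 and 12.3 as the lowest, median and highest. The lowest value of all belonged to heroin replicate 5 and the highest to saline replicate 5, which share a slide. The log2 change was 0.11 (SE 0.19, 95% interval -0.29 to 0.51, limma adjusted p = 0.717, exact permutation p = 0.608).

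Slc32a1, whose product loads the vesicles and marks terminals that release GABA or glycine, read 39.7, 44.5, 52.2, 59.4 and 37.0 array medians in the saline rats and 48.9, 52.0 and 58.0 as the lowest, median and highest in the heroin rats. The heroin rats were tightly grouped, with 52.5 ± 3.48 (SD, n = 6) beside 46.5 ± 9.20 (SD, n = 5) for saline, and all of them lay inside the saline range. The log2 change was 0.19 (SE 0.14, 95% interval -0.10 to 0.49, limma adjusted p = 0.384). The ratio of Gad1 to Slc32a1 within arrays differed by 0.19 (exact permutation p = 0.288) and that of Gad2 to Slc32a1 by -0.09 (exact permutation p = 0.632).

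On the side of uptake and breakdown, Slc6a11 was the only one of the 10 with a lower mean in the heroin group under this scaling, although quantile normalization and normexp gave a higher one. It read 0.630, 0.901, 0.834, 0.643 and 0.857 array medians in the saline rats and 0.552, 0.793 and 0.945 as the lowest, median and highest in the heroin rats. The groups covered nearly the same range, with a log2 change of -0.02 (SE 0.17, 95% interval -0.37 to 0.33, limma adjusted p = 0.944). In its dimmest array this probe was 1.93 times the lowest signal scored as well above background.

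Abat read 3.90, 4.98, 4.75, 4.52 and 3.61 in the saline rats and 4.11, 4.98 and 6.03 as the lowest, median and highest in the heroin rats. Here 3 heroin rats lay above all saline rats and none lay below them. The log2 change was 0.19 (SE 0.14, 95% interval -0.12 to 0.49, limma adjusted p = 0.411), and the ratio of Gad1 to Abat within arrays differed by 0.19 (exact permutation p = 0.323).

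Of the receptor subunits, Gabbr1 carries the site that binds GABA, and its main probe was the only one of the 10 whose groups did not overlap. This probe, A_44_P249164, is spotted 10 times on each array and read 30.4, 28.7, 34, 34 and 23.7 array medians in the saline rats. The heroin rats read 35.2, 34.3, 41.7, 35.2, 37.0 and 34.2 in replicates 1 to 6. The gap between the groups was small, since 2 saline rats at 34 lay next to the heroin rats at 34.2 and 34.3. The log2 change was 0.28 (SE 0.13, 95% interval 0.01 to 0.55), a 1.21-fold difference with a limma adjusted p of 0.268. The exact permutation p was 0.00216, the smallest that the divisions of the 11 rats allow, and groups without overlap were found for 1.78% of all tested probes. The separation was lost under each of the other 4 scalings tried, with log2 changes of 0.06 (75th percentile), 0.03 (quantile), 0.08 (median of the detected probes) and 0.26 (normexp), and exact permutation p from 0.0649 to 0.723.

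At the other Gabbr1 probe, A_43_P12481, the saline rats read 1.23, 1.22, 1.85, 1.67 and 1.15 and the heroin rats 1.38, 1.73 and 1.97 as the lowest, median and highest. Its log2 change of 0.27 (SE 0.16, 95% interval -0.07 to 0.62) did not differ measurably from that of the main probe, since the ratio of both probes within arrays changed by 0.00 (95% interval -0.34 to 0.33, exact permutation p = 0.985). With quantile normalization the same ratio was 0.19 higher in the heroin group.

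Gabbr2, the subunit that couples to the G protein, read 148, 160, 176, 198 and 169 array medians in the saline rats and 127, 209 and 227 as the lowest, median and highest in the heroin rats. Of the heroin rats, 4 lay above all saline rats and replicate 6 below all of them. The log2 change was 0.16 (SE 0.16, 95% interval -0.17 to 0.49, limma adjusted p = 0.512). The ratio of Gabbr1 to Gabbr2 within arrays was 0.11 higher in the heroin group (95% interval -0.24 to 0.47, exact permutation p = 0.5). All 9 ratios between probes of these genes had an exact permutation p of 0.167 or more.

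**Figure D2:**
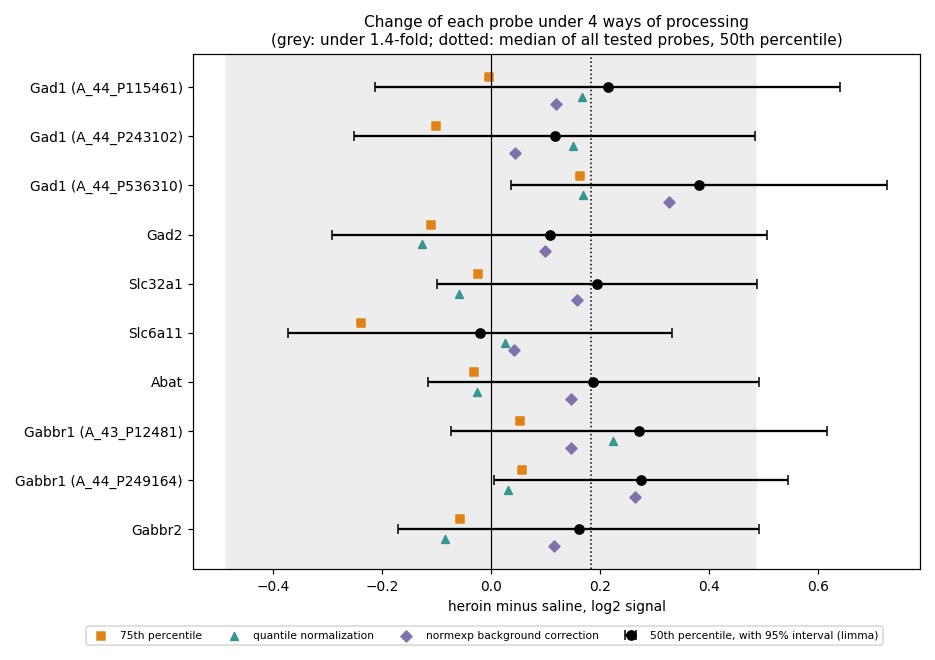
Log2 difference, heroin minus saline, of each of the 10 probes (x axis), with limma's 95% interval for the 50th percentile scaling (black) and the values under 3 other ways of processing (coloured). The intervals of 8 probes include 0, those of 8 include a 1.4-fold rise (0.485, right edge of the grey band) and none includes a 1.4-fold fall.

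Under the 50th percentile scaling, the 95% intervals bound what could have been missed in that fit only. Of the 10, 8 included 0, 8 included a 1.4-fold rise (0.485 on the log2 scale) and none included a 1.4-fold fall. These intervals come from the fit without the slide. The signs of Gad2, Slc32a1, Abat and Gabbr2 turned with the 75th percentile scaling and with quantile normalization, as shown in the plot of the changes by processing. Across single rats, the mean of the brightest probes of the 7 genes moved with the median of all detected probes. Relative to the mean over all rats, saline replicates 2 and 6 were at -0.29 and -0.19 for these brightest probes. For all detected probes they were at -0.22 and -0.19. Heroin replicate 3 was at 0.27 and 0.15.

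Base composition also went with the size of the change. In the class of tested probes with the fewest G and C bases, 16.7% to 33.3%, the median log2 change was 0.334, and in the class with 55% or more it was 0.13. The main Gad1 probe, with 30% G and C, belongs to the first class, while those of Gabbr1, Slc32a1, Slc6a11 and Abat, at 55%, belong to the last. After the deviations of each class were removed from each array, the log2 change was 0.05 for Gad1 and 0.16 for the main probe of Gabbr1. This step also took away most of the shift shared by all tested probes, whose median went from 0.183 to 0.0128. The 75th percentile scaling, which takes no account of base composition, gave 0.16 for the main Gad1 probe and 0.06 for that of Gabbr1. The part of base composition in the change of either gene was not tested further.

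Arrays with the same scan time in the file headers were taken as 1 slide. Each of 5 slides held the same-numbered heroin and saline rats of replicates 2 to 6, and heroin replicate 1 was on a slide of its own. All heroin samples were at position 4 of a slide and all saline samples at position 3, so array position and group cannot be told apart. Within slides, both Gabbr1 probes were higher in the heroin rat on 5 of 5, by 0.05 to 0.54 at the main probe and by 0.04 to 0.77 at the other. Gad1 at A_44_P536310 and Slc32a1 were higher on 4 of 5, Gad1 at A_44_P243102, Gad2, Abat and Gabbr2 on 3 of 5, and Gad1 at A_44_P115461 and Slc6a11 on 2 of 5. Over all tested probes the median difference was 0.266, 0.277, 0.12, -0.105 and 0.223 on the slides of replicates 2 to 6. With the slide as a block, no probe of the 7 genes was called and none had an unadjusted limma p under 0.05. The log2 changes of the main probes of Gad1 and Gabbr1 were then 0.39 and 0.28. Both lost the unadjusted p under 0.05 that they had without the block. The smallest limma adjusted p of the 10 probes was 0.454. Heroin replicate 1, alone on its slide, adds nothing to the change in this fit. Leaving out that rat without a block gave an unadjusted limma p of 0.0439 for Gad1 and 0.064 for Gabbr1.

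**Figure D3:**
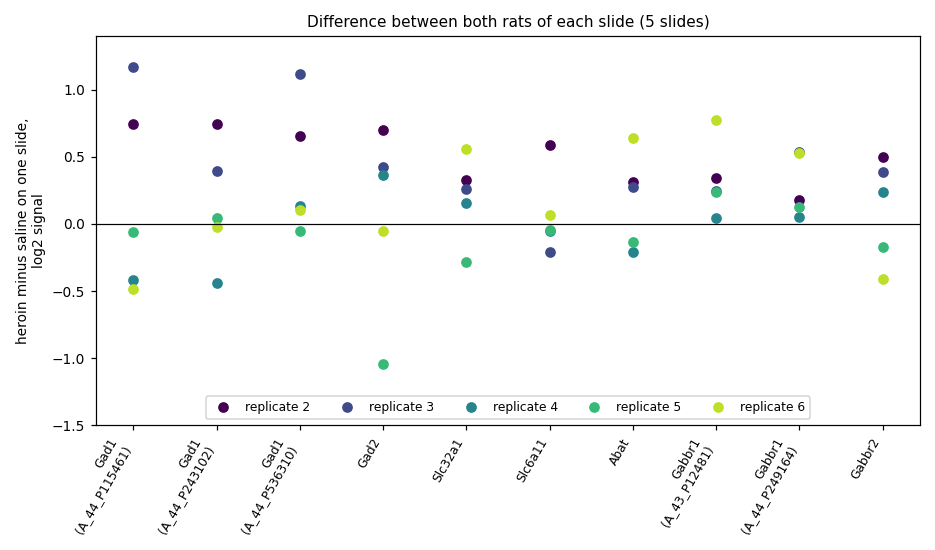
Log2 difference between the heroin and the saline rat on each of the 5 slides that held both (y axis), for the 10 probes (x axis), coloured by replicate number. Both Gabbr1 probes lie above 0 on 5 of 5 slides, and Gad2 ranges from -1.04 on the slide of replicate 5 to 0.70 on that of replicate 2.

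Saline replicate 5 stood apart in genes that mark the striatum, a neighbouring region rich in GABA neurons. Penk, the proenkephalin precursor, was at 42.6 array medians in that rat and at 12.7 to 21.7 in the other 10. Rgs9, a striatal regulator of G protein signalling, was at 13.3 beside 3.03 to 5.48, the adenosine receptor gene Adora2a at 5.92 beside 1.75 to 3.00, and Gpr6 at 3.21 beside 0.369 to 1.04. The mean log2 level of the 7 tested striatal markers was 2.81 there and 1.88 to 2.34 elsewhere, though Drd1a, Ppp1r1b and Pde10a were within the range of the other rats. The same rat had the highest Gad2 and Slc32a1 signals of all 11 and the highest Gad1 signal of the saline rats at A_44_P536310. Its median over all detected probes, at 0.09 relative to the mean over all rats, was also the highest of the saline rats.

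Without saline replicate 5, the log2 change of Gad1 at A_44_P536310 was 0.50 and passed both thresholds, Gad2 was at 0.23, Slc32a1 at 0.29 and the main Gabbr1 probe at 0.32. Over all tested probes the number called then rose from 694 to 2352 and the median log2 change from 0.183 to 0.235. The part of tissue outside the cortex in these values was not tested. Oligodendrocyte markers varied widely in both groups, with Mbp at 35.2 to 149 array medians in heroin and 42.9 to 137 in saline rats.

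**Figure D4:**
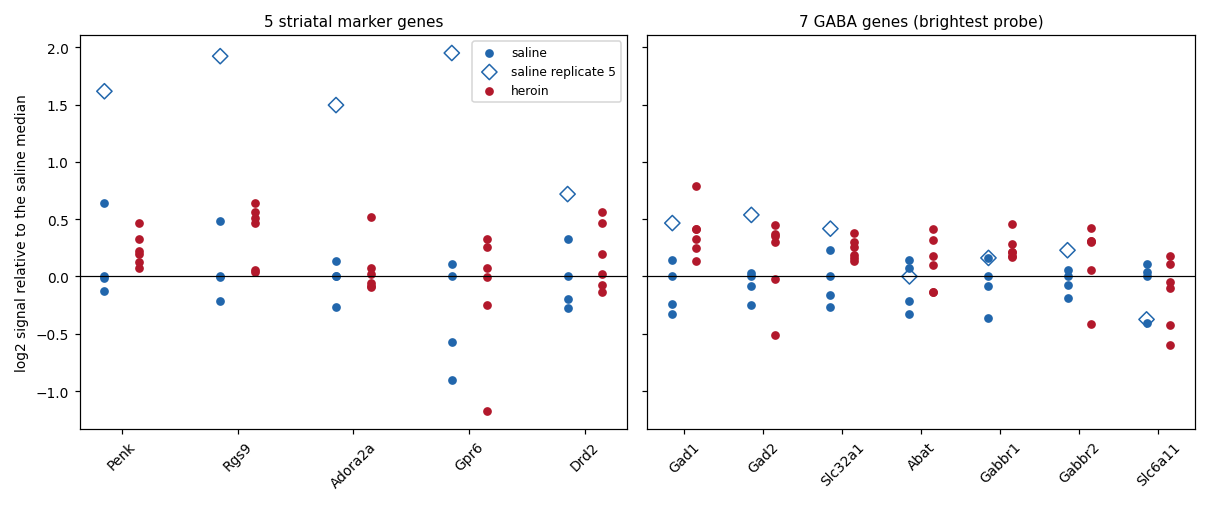
Log2 signal of 5 striatal marker genes (left) and of the brightest probe of the 7 GABA genes (right) in every rat, relative to the saline median of each gene, with saline replicate 5 drawn as an open diamond. That rat lies above all others for Penk, Rgs9, Adora2a, Gpr6, Gad2 and Slc32a1.

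Genes around these 7 were read from lists, to be set beside the 78.7% of all tested probes that were higher in the heroin group, their median of 0.183 and the 2.72% called. As for the 7 genes, the counts of higher genes depended on the scaling. Of 10 other genes of GABA uptake, breakdown and precursor supply, 9 were tested, 7 were higher in the heroin group and none passed both thresholds, with a median log2 change of 0.191. With the 75th percentile scaling 3 of 9 were higher and the median was -0.03. Aldh5a1, which oxidises the product of GABA transaminase, was one of 2 genes of this list with a negative change, -0.23 (limma adjusted p = 0.282).

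Among partners and effectors of the GABA-B receptor, 12 of 15 listed genes had a probe, 11 of the 12 were higher in the heroin group, the median was 0.268 and 1 passed both thresholds. With the 75th percentile scaling 7 of 12 were higher, with a median of 0.05, and with quantile normalization 7 of 12, with a median of 0.025. The called gene was Gnai1, an inhibitory G protein alpha subunit, at 1.48, 1.44, 2.04, 3.72 and 1.86 array medians in the saline rats and 2.66 to 3.47 in the heroin rats. The highest value of all was that of saline replicate 5, so the groups overlap. The log2 change was 0.63 (SE 0.21, limma adjusted p = 0.263), and 0.51 with quantile normalization. No gene of this list was called by the methods' t-test, with the 75th percentile or detected-probe scaling, with normexp or after removal of base composition effects. The potassium channel subunits Kcnj3, Kcnj6 and Kcnj9 changed by -0.05, 0.21 and 0.10, none past the thresholds.

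Of 8 listed genes of the inhibitory synapse scaffold and chloride transport, 7 were tested, 6 were higher and none was called, with a median of 0.286. With the 75th percentile scaling 6 of 7 were higher with a median of 0.068, and with quantile normalization 4 of 7, with a median of 0.065. The smallest p was that of Slc12a2, the chloride importer NKCC1, with a log2 change of 0.53 (SE 0.21, limma adjusted p = 0.263). The chloride exporter gene Slc12a5 was at 793 ± 148 in heroin and 626 ± 68.3 in saline rats. Its log2 change was 0.33 (SE 0.14, limma adjusted p = 0.263), and 0.083 with quantile normalization.

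Of the cell type markers, those of interneurons had a median log2 change of 0.215, with 13 of 15 tested genes higher and 1 called. With the 75th percentile scaling 7 of 15 were higher, the median was -0.0032 and none was called, and with quantile normalization 8 of 15 were higher, with a median of 0.043. The called gene was Vip, the peptide of a class of interneurons, at 68.7, 58.7, 78.0, 81.9 and 70.2 array medians in the saline rats and 82.6 to 116 in the heroin rats. The groups did not overlap, as for 1.78% of all tested probes, but the gap was small, from 81.9 to 82.6. The log2 change was 0.49 (SE 0.13, limma adjusted p = 0.263). With quantile normalization it was 0.25 and no interneuron gene was called, and none was called with the detected-probe scaling, normexp, base composition effects removed, marked spots kept or the authors' ratios. Parvalbumin (Pvalb) and somatostatin (Sst), markers of common classes of interneuron, were at 35.1 ± 7.60 and 193 ± 44.0 in heroin and 31.0 ± 4.75 and 164 ± 22.9 in saline rats. Their log2 changes were 0.16 and 0.21, and -0.08 and -0.03 with quantile normalization.

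The markers of excitatory cortical neurons, 5 genes all detected on every array, had a median of 0.309 with 5 of 5 higher and the smallest p for Neurod2 (0.30, limma adjusted p = 0.263). The medians were 0.171 for 9 astrocyte genes with 8 higher, 0.0526 for 9 oligodendrocyte genes with 6 higher, 0.18 for 9 microglial genes with 9 higher, 0.101 for 7 genes of endothelium and blood with 5 higher, and -0.058 for 7 striatal genes with 3 higher. None of the genes in these lists was called. With the 75th percentile scaling the numbers higher were 2 of 9 for astrocytes, 2 of 9 for oligodendrocytes, 3 of 9 for microglia, 1 of 7 for endothelium and blood and 1 of 7 for striatum, with medians of -0.047, -0.165, -0.038, -0.117 and -0.276, while 4 of 5 excitatory genes stayed higher with a median of 0.091. Across rats, the mean log2 level of the interneuron list was 3.80 to 3.93 in the heroin and 3.43 to 3.91 in the saline group, and that of the astrocyte list was 4.43 to 5.06 and 4.32 to 4.92.

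**Figure D5:**
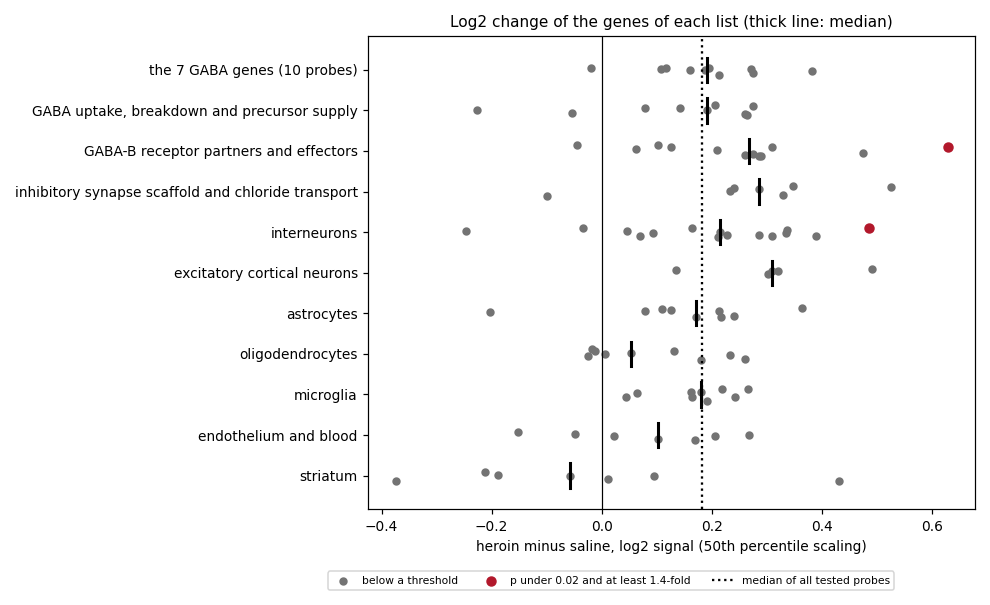
Log2 difference, heroin minus saline, of the tested genes of each list (x axis), with the list's median as a thick line, genes past both thresholds in red and the median of all tested probes (0.183) as a dotted line. The 10 probes of the 7 GABA genes spread around the dotted line with a median of 0.191.

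The profiles most like those of the 2 genes with the largest changes were sought among all named probes, by the root mean square difference of centred log2 signals over the 11 arrays. For Gad1 at A_44_P536310 the nearest included Hspa8 (0.075) and Hnrpab (0.0857), where the median over all probes was 0.335. For Gabbr1 at A_44_P249164 they were Flot2 (0.0682), Ipo13 (0.0712) and Arsa (0.077), with a median of 0.272. These values describe likeness in 11 rats that share the same scaling, and carry no test.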

How the data were processed

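The authors labelled the RNA of each rat with Cy3, hybridised 1 whole rat genome array per rat and deposited the Feature Extraction output (version 9.5.1.1 per the file headers), in which each spot has a signal intensity corrected for background but not scaled between arrays. A deposited table of the authors holds relative values, a ratio around 1 for each probe, and served as an alternative. The methods name 12 arrays, and 11 were analysed here. Groups, replicate numbers and the separate rats come from the sample labels.

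Each array held 45018 spots for 41012 non-control probes. Control spots and marked outlier spots were left out, intensities under 5 were set to 5, spots of a probe were averaged, signals were expressed relative to the 50th percentile of their array and log2 was taken, following the methods. A probe was detected where at least 0.5 of its spots were well above background. Array medians before scaling were 42.7 to 78.3 in heroin and 58.0 to 83.2 in saline arrays, and 28185 to 33835 probes were detected per array. The number of arrays limits the precision.

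The 25555 probes detected on all 11 arrays with usable spots were fitted in limma (version 3.58.1, R 4.3.3; lmFit and eBayes, two-sided) with Benjamini-Hochberg adjustment over all of them. A call was an unadjusted p under 0.02 with at least 1.4-fold, the thresholds of the methods. No probe had an adjusted p under 0.05, while 4723 had an unadjusted p under 0.05, and the smallest adjusted p was 0.263. Single probes and the 9 ratios within arrays were tested by exact permutation over all divisions of the rats into groups of 6 and 5, and the ratios are given unadjusted (adjusted over the 9, all were 0.581 or more). A simulated set for this comparison held 25555 probes, and 200 of them were given a log2 difference of 1. Of these 200, 99% were recovered, and 0.864% of the unchanged ones were called. The simulated difference exceeds the largest change of the 10 probes, 0.38, so the recovery does not apply to changes of their size. Neither share is a rate for the real arrays. There the part of the calls that were higher went from 65.9% to 4.24% with the 75th percentile scaling.

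All probes of the 7 genes were described, with the brightest as a gene's main probe. From each list, genes past both thresholds were named, or the gene with the smallest p, and further list genes were picked for their role. Some genes that this rule or the profile comparison would name are not reported here. The members and lists were chosen with earlier results of these data known. The alternatives were other scalings and background corrections, the authors' ratio table, detection filters, the methods' t-test, limma with trend, robust or array weights, a replicate or slide block, averaged probes and leaving out each rat. Removal of base composition effects, quantile normalization with the block, and the ratios within arrays were added after the data were seen.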

Additional observations from a re-analysis of the deposited data

How the results depend on the processing

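No probe of the 7 genes was called under any alternative except the removal of saline replicate 5, where 1 was. Gad1 at A_44_P536310 and both Gabbr1 probes stayed higher in the heroin group under every alternative, over ranges of 0.05 to 0.50 (Gad1), 0.05 to 0.37 (Gabbr1 A_43_P12481) and 0.03 to 0.32 (Gabbr1 A_44_P249164). The other signs turned with the scaling. With the 75th percentile, Gad1 was at -0.0041 (A_44_P115461) and -0.10 (A_44_P243102), Gad2 at -0.11, Slc32a1 at -0.024, Abat at -0.031 and Gabbr2 at -0.057. With quantile normalization, Gad2 was at -0.13, Slc32a1 at -0.058, Abat at -0.025, Gabbr2 at -0.084 and Slc6a11 at 0.026. With the median of the detected probes, Gad1 A_44_P243102 was at -0.074, Gad2 at -0.083, Abat at -0.0033 and Gabbr2 at -0.030. Slc6a11 was at 0.042 with normexp, and removal of base composition effects gave -0.094 for Gad1 A_44_P243102 and -0.039 for Gad2. The cause was not tested.

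Same-numbered rats shared a slide, and the correlations of their deviations ran from -0.237 to 0.384, with 2 of 5 saline rats closest to their own number, so the fit without the block was kept. The replicate block, which is also the slide block, gave 805 called probes, no member called and 0.070 for Slc6a11. Quantile normalization with the replicate block gave -0.14 for Gad2, -0.041 for Slc32a1, 0.11 for Slc6a11, -0.026 for Abat, -0.13 for Gabbr2 and 410 called probes.

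The count of all called probes was 694 as reported, 779 with the 75th percentile (4.24% of them higher, against 65.9%), 675 with the detected probes (6.22% higher), 457 with quantile normalization (47.7%), 126 with normexp (96.8%), 1560 with no detection filter (30.4%), 1067 with detection in 1 group (43.8%), 639 after removal of base composition effects (6.1%), 308 with the methods' t-test and 2446 with array weights. Array weights also gave 8154 probes an adjusted p under 0.05, among them Gad1 A_44_P536310 (0.0262), Gabbr2 (0.0324) and Gabbr1 A_44_P249164 (0.0384), with weights from 0.262 (heroin replicate 6) to 3.53 (heroin replicate 1). The lists held 2 called genes as reported, 0 with the 75th percentile, the detected probes, normexp and base composition removed, 1 with quantile normalization (also with the block), the authors' ratios, marked spots kept and the methods' t-test, and 7 with array weights. Leaving out each rat in turn gave 343 (without saline replicate 2) to 2352 (without saline replicate 5) called probes, 393 without saline replicate 3, 0 to 5 called list genes, 0 to 1 called member probes, and -0.090 to 0.070 for Slc6a11.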

Other observations

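Probes that concern the same receptor but carry another name on the array were noticed after their values were seen, and are given with no test. A probe described as GABA B receptor 1g read 1.21 ± 0.219 array medians in the heroin rats (SD, n = 6) and 1.11 ± 0.334 in the saline rats (SD, n = 5). A probe for a coiled-coil protein that binds the Gabbr1 subunit, now named Jakmip1, read 87.4 ± 8.60 and 69.0 ± 6.07, a log2 difference of 0.34. None of the 20 sets of values of 1 probe in 1 group held a rat far enough from the others to be singled out by Dixon's criterion.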
